A study of Mus musculus with 20 samples.

Results

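Otx2, Mitf, Sox9, Lhx2, Pax6, Crx, Nrl, Nr2e3, Thrb and Rorb encode transcription factors that set and keep the identities of eye cells. They were taken by symbol, and all 10 were found among the 24411 genes of the deposited table. Bulk RNA-seq had been run on the RPE-choroid of mice labelled C57BL/6, the tissue left when the neural retina is peeled from the posterior eyecup after dispase treatment. By the study's methods, both eyecups of 1 mouse were pooled per library. There were 4 groups of 5 libraries. VAS WT and VAD WT were wild-type mice fed for 12 weeks after weaning on a diet with 4 or 0 IU vitamin A per g. VAS Stra6-/- and VAD Stra6-/- were knockouts of the retinol transporter gene Stra6, on the same diets for the same time. By the methods the knockouts were generated in house and the WT mice came from a supplier, so that origin and genotype cannot be told apart. All mice had been raised by dams on standard chow. The sexes of the mice were not given in the sources used here.

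OTX2 and MITF together specify the RPE and switch on its pigment and visual cycle genes, and SOX9 acts beside them at several RPE promoters. In photoreceptors OTX2 switches on Crx, after which CRX, NRL and NR2E3 drive the rod programme, while the thyroid hormone receptor encoded by Thrb is needed for M cones and RORB acts upstream of Nrl. LHX2 and PAX6 belong to the eye field; in the adult PAX6 persists in amacrine and ganglion cells and in the corneal and conjunctival epithelium.

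Promoter sequence was examined because several of these factors bind each other's genes. RefSeq start sites (GRCm38.p6) gave 18 windows of 300 bases, from 250 before to 50 after a start, for 9 of the 10 genes. Both strands were searched for TAATCC, the core bound by OTX2 and CRX, for CATGTG, an E-box of the kind bound by MITF, and for TGCTGA, a site core of the kind bound by NRL. CACGTG, the palindromic E-box, and AGGTCA, a core site of nuclear receptors, were searched too; no stretch can match more than 1 of these motifs in full. TAATCC or its reverse GGATTA stood in 4 of the 18 windows, from Otx2, Mitf, Crx and Thrb, and in 7.06% of all 32851 windows of the same length. CATGTG stood in 2 of the 18 windows (14.2% of all), TGCTGA in 5 (19.5%), CACGTG in 1 (7.15%) and AGGTCA in 2 (16.3%). Such a match describes the letters only and does not show that a factor was bound. The stretches before a start that hold no annotated exon are given for Crx and Mitf, which carry the OTX2 and CRX core, and for Otx2, which carries the MITF type of E-box; capitals mark every match to the motifs searched. The Crx stretch is chr7:15879969-15880205 (minus strand, 237 bases), the Mitf stretch chr6:97929567-97929798 (plus strand, 232 bases, at an internal start) and the Otx2 stretch chr14:48667645-48667894 (minus strand, 250 bases).

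Crx: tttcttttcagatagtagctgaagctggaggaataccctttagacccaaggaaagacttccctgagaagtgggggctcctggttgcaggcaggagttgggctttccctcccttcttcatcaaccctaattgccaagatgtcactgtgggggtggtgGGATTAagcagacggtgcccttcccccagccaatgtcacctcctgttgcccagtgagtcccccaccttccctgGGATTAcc

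Mitf: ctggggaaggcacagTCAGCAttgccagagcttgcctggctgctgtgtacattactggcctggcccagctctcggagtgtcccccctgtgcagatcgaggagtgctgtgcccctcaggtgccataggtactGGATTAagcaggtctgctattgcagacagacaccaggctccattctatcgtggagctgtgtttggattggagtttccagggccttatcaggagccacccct

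Otx2: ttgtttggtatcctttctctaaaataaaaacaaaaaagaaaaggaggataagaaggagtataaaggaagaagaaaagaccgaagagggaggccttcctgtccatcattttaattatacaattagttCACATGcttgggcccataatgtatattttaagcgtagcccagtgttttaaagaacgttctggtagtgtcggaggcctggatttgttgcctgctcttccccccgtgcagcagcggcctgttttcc

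The Crx stretch held GGATTA in 2 places, which begin 94 and 21 bases before the start site. In the Mitf stretch GGATTA began 119 bases before the start and was preceded by TCAGCA, the reverse of the NRL type of core. In the Otx2 stretch CACATG, the reverse of CATGTG, began 124 bases before the start.

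The libraries held 13331903 to 21878614 reads, with a median of 17785927. The deposited value is the gene's read count divided by 1 size factor per library, called the normalized value here. The targeted gene Stra6 had normalized values of 2414 to 2742 in VAS WT and 564 to 694 in VAS Stra6-/-. It stood at 1973 to 2393 in the libraries labelled VAD Stra6-/-, which, read by itself, goes against that label. Stra6 is an RPE transcript, however, and RPE marker RNA differed as well, taken as the mean log2(value + 1) of 12 genes. From VAS WT to VAS Stra6-/- Stra6 fell by 2.04 on the log2 scale and these genes differed by 0.06. In the libraries labelled VAD Stra6-/- Stra6 was higher than in VAD WT by 1.23 and the 12 genes by 3.49. Against VAS Stra6-/- the values were 1.78 and 2.15. In the group labelled VAD WT Stra6 stood at 693, 697 and 669 in replicates 1, 3 and 5, about the level of VAS Stra6-/-. It stood at 1340 and 1529 in replicates 2 and 4. From VAS WT to VAD WT Stra6 fell by 1.49 on the log2 scale and the 12 RPE genes by 1.27. The level of Stra6 alone therefore cannot settle either label on the VAD diet, and the part of RPE content in it was not tested. VAD WT stands below for the libraries so labelled, and every direction drawn from the 10 libraries on the VAD diet rests on these labels. Xist, expressed from the inactive X chromosome of females, and the Y-linked Ddx3y separated the groups as well: VAS WT held Ddx3y, VAS Stra6-/- held Xist, and the libraries labelled VAD Stra6-/- each held both (Xist 3570 to 4280, Ddx3y 741 to 970), which tissue from a single mouse would not be expected to hold. Sex and genotype therefore cannot be told apart on the VAS diet, and n counts libraries rather than mice. VAD WT was split, with replicates 2 and 4 high in Xist and replicates 1, 3 and 5 high in Ddx3y. Each also held a low level of the other marker. Ddx3y was at 75.2 and 80.5 in replicates 2 and 4, against at most 1.02 in VAS Stra6-/-. Xist was at 174 to 234 in replicates 1, 3 and 5, against at most 38.4 in VAS WT.

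The RNA of cell type markers differed between the libraries too. Marker lists are summarised as the mean of log2(value + 1) over the list. The RPE list (12 genes) ranged from 11.2 to 11.6 in VAS WT, 9.66 to 10.7 in VAD WT, 11.4 to 11.5 in VAS Stra6-/- and 13.5 to 13.7 in the libraries labelled VAD Stra6-/-. The surface epithelium list (10 genes, with the corneal keratin Krt12) ranged from 14.9 to 15.1, 14.1 to 15.4, 15.3 to 15.3 and no more than 10.3 in the same order. In tissue labelled RPE-choroid, Krt12 alone reached 165008 ± 19655 in VAS WT, while the group labelled VAD Stra6-/- held 2851 ± 512 (SD, n = 5 each). The rod list (14 genes) ranged from 12.7 to 12.9, 12.5 to 13.7, 12.7 to 12.8 and 12.0 to 12.2. The inner retina list (11 genes) ranged from 8.98 to 9.27, 8.61 to 9.83, 8.95 to 9.03 and 8.56 to 8.64. No gene of these 4 lists was at 0 across a whole group. Within VAD WT the surface epithelium list was lower and the rod list higher in replicates 2 and 4 than in replicates 1, 3 and 5. In bulk tissue, fewer cells of a type and less RNA per cell cannot be told apart.

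Compared per kilobase of the longest principal transcript, Pax6 had the highest level of the 10 genes in VAS WT, with a normalized value of 2196 ± 58.3 (SD, n = 5) per kilobase. It was followed by Nrl at 1788 ± 77.8, Crx at 1151 ± 68.0, Otx2 at 1018 ± 41.8 and Nr2e3 at 840.1 ± 78.4 (SD, n = 5 each). The ranges of Crx and Otx2 overlapped, while the other neighbours in this order did not. Mitf (237 ± 5.16), Sox9 (195 ± 19.4) and Lhx2 (158 ± 24.2) formed a lower tier, in which the ranges of Sox9 and Lhx2 overlapped. Rorb (67.9 ± 6.57) and Thrb (62.4 ± 7.43) were lowest and overlapped. In the libraries labelled VAD Stra6-/- the order changed at the top: Otx2 stood first at 1929 ± 77.1 per kilobase, and Pax6, behind Nrl, at 768 ± 56.0 (SD, n = 5 each).

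**Figure D1:**
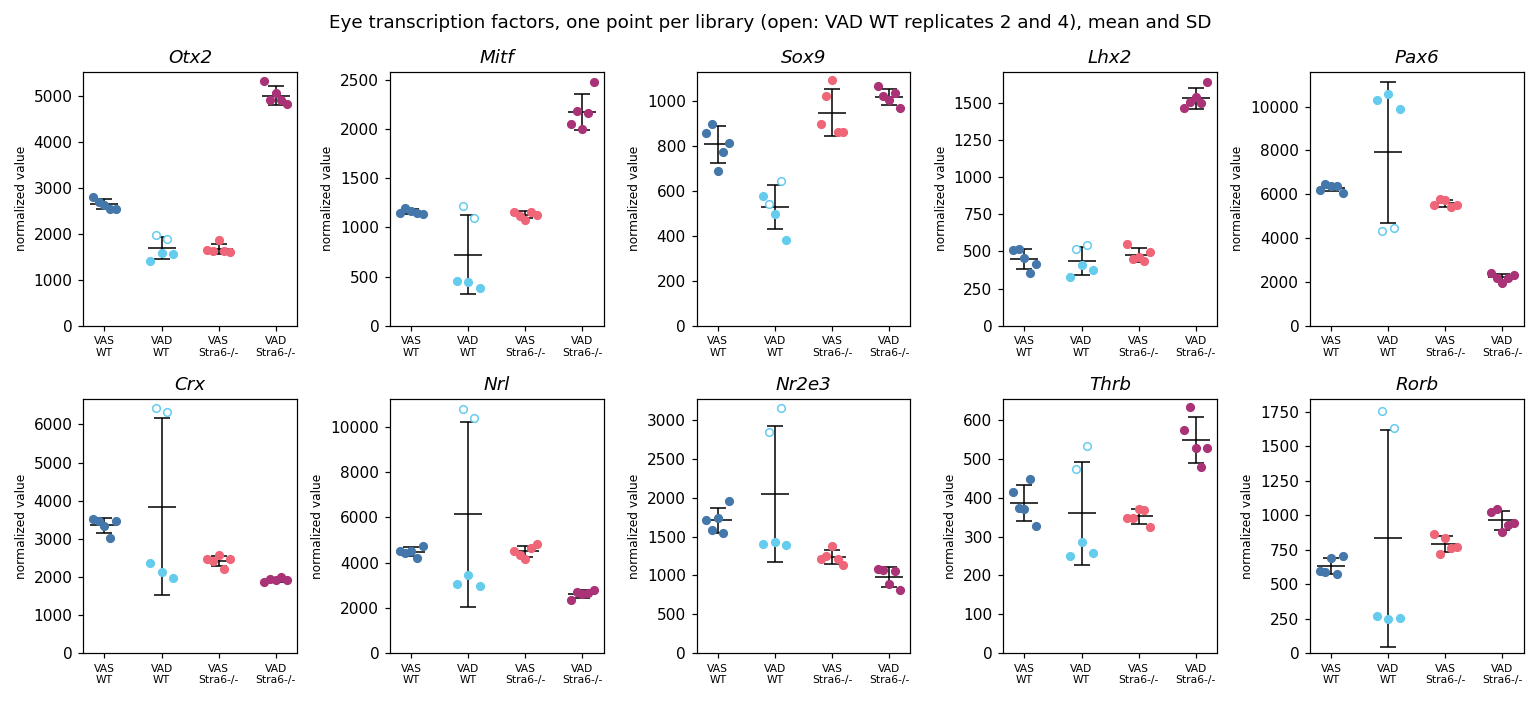
Normalized values (vertical axis, linear, from 0) of the 10 transcription factors in the 4 groups, with 1 point per library and the mean and SD of 5; open points are VAD WT replicates 2 and 4. The libraries labelled VAD Stra6-/- sit above all others for Otx2, Mitf and Lhx2 and below all others for Pax6, Nrl and Nr2e3. The open points stand apart from the rest of VAD WT for every gene but Sox9.

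On the VAS diet, Otx2 was lower in the Stra6-/- libraries, a comparison in which sex and genotype cannot be told apart. Otx2, which lies on chromosome 14 from 48657677 to 48673819 of GRCm38, had normalized values of 2793, 2690, 2633, 2540 and 2534 in VAS WT. In VAS Stra6-/- it had values of 1640.4, 1614, 1858, 1633 and 1605. The groups did not overlap, and every VAS Stra6-/- library lay below every VAS WT library. The log2 fold change was -0.66, with a standard error (SE) of 0.078 and an adjusted p of 2.11e-06 (limma). Otx2 shares 154 exonic bases with its antisense gene Otx2os1 (normalized value at most 78.6), and the strand setting of the counting was not given in the sources used here. Otx2 was the only 1 of the 10 genes called in this comparison, as lower; 10.8% of the 18807 genes tested were called lower and 15.9% higher. The median log2 fold change was -0.09 over the 10 genes and 0.02 over all genes tested.

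Of the photoreceptor group, Crx and Nr2e3 lay lower without passing the test. Rorb lay higher, by 0.33 on the log2 scale (SE 0.42, adjusted p = 0.63, limma). Crx, the homeobox factor of rods and cones on chromosome 7 (15865947 to 15879968), had values of 3516, 3462, 3339, 3023 and 3456 in VAS WT and 2466, 2419, 2569, 2206 and 2455 in VAS Stra6-/-. The 2 ranges did not meet, yet the log2 fold change of -0.47 had an SE of 0.25 and an adjusted p of 0.18 (limma) in a fit whose spread is estimated over all 4 groups, the split VAD WT included. Nr2e3, a nuclear receptor of rods on chromosome 9 (59942771 to 59960659), spanned 1552 to 1958 and 1130 to 1380 in these groups and differed by -0.46 on the log2 scale (SE 0.19, adjusted p = 0.07, limma). Nrl, the leucine zipper factor that commits precursors to the rod fate (chromosome 14, 55518978 to 55524981), differed by 0.0056 on the log2 scale (SE 0.27, adjusted p = 0.998, limma), a value whose sign turned with TMM factors and with edgeR.

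The number of calls therefore depended on the libraries in the fit. With only the 2 groups compared, 5 of the 10 genes were called, 4 lower (Otx2, Pax6, Crx and Nr2e3) and 1 higher (Rorb); over all genes 19.5% were then called lower and 24.1% higher. The same counts were found without VAD WT replicates 2 and 4, where 17.5% of all genes were called lower and 22.5% higher. The adjusted p of Crx was 3.68e-05 and 3.64e-07 in these 2 fits (limma). Pax6 was at -0.17 on the log2 scale in either. Mitf had values of 1148, 1198, 1164, 1149 and 1132 in VAS WT and 1161, 1112, 1073, 1155 and 1130 in VAS Stra6-/-; the ranges overlapped, and the 95% interval of its log2 fold change ran from -0.51 to 0.43. The same interval ran from -0.0012 to 0.46 for Sox9, from -0.17 to 0.36 for Lhx2 and from -0.48 to 0.22 for Thrb.

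**Figure D2:**
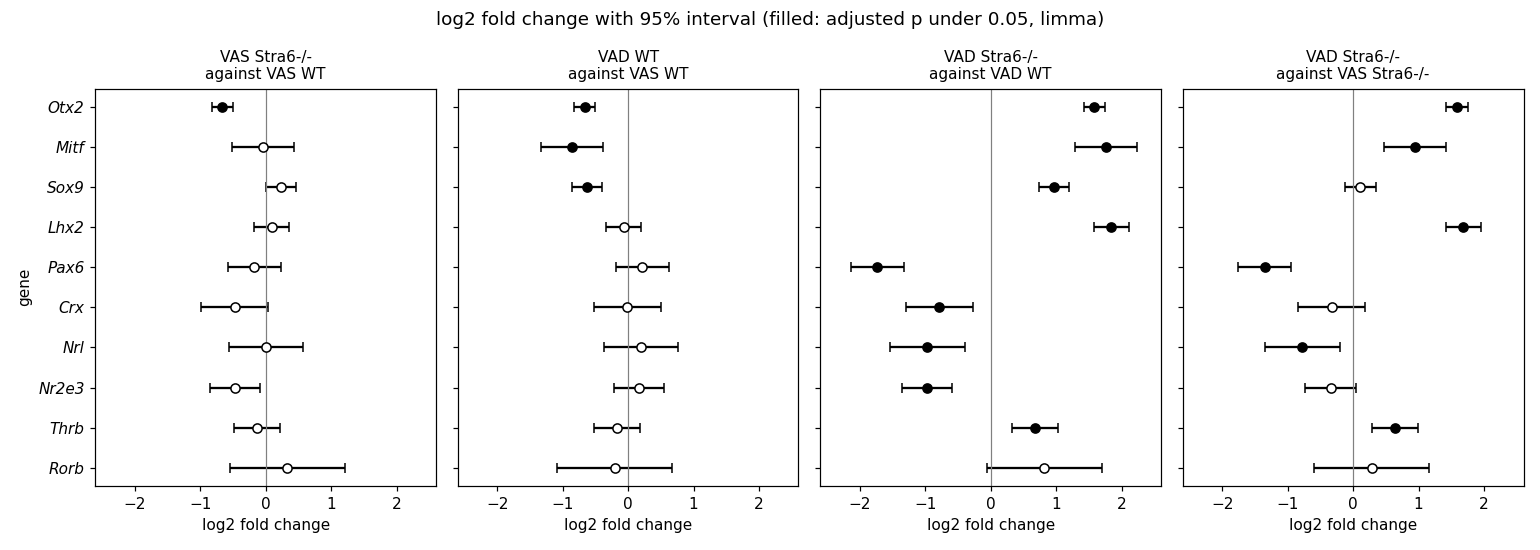
The log2 fold change of each transcription factor (horizontal axis) with its 95% interval in 4 comparisons, filled where the adjusted p is under 0.05 (limma, all 20 libraries in the fit). Otx2 is at -0.66 in the left panels and at 1.58 in the right panels, and Pax6 is at -1.73 and -1.35 in the right panels.

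Otx2, Sox9 and Mitf, the RPE factors, were lower in the libraries labelled VAD WT than in VAS WT. Otx2 had values of 1411, 1966, 1574, 1896 and 1552 in VAD WT, all below the VAS WT libraries, a difference of -0.66 on the log2 scale (SE 0.078, adjusted p = 6.99e-06, limma). Sox9, an HMG-box factor of RPE and Muller glia on chromosome 11 (112782224 to 112787760), had values of 857, 897, 689, 772 and 813 in VAS WT and 578, 540, 497, 644 and 380 in VAD WT. These ranges did not overlap either, and the log2 fold change was -0.63 (SE 0.11, adjusted p = 0.000836, limma). Mitf, the bHLH-ZIP factor of pigment cells on chromosome 6 (97807052 to 98021349), had values of 454, 1213, 444, 1100 and 389 in VAD WT. Replicates 2 and 4 of VAD WT stood at the VAS WT level and replicates 1, 3 and 5 well below it. The log2 fold change of Mitf was -0.86 (SE 0.23, adjusted p = 0.0194, limma), and it failed the threshold without replicate 1, 3 or 5 of VAD WT, with edgeR and with only the 2 groups in the fit, where the adjusted p reached 0.23.

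These 3 genes were called lower and none of the 10 higher, against 5.5% of all genes tested called lower and 3.29% higher. The median log2 fold change was -0.12 over the 10 genes and 0.00 over all genes tested. Within the same comparison 10 of 12 genes of the RPE list were called lower, with a list median of -1.27, and the part of cell makeup in the values of Otx2, Sox9 and Mitf was not tested.

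The remaining members were split by the 2 kinds of VAD WT library. Rorb, an orphan nuclear receptor of photoreceptor and horizontal cell precursors (chromosome 19, 18930605 to 19111196), had values of 1755 and 1630 in replicates 2 and 4 and 265, 248 and 255 in replicates 1, 3 and 5, against 574 to 702 in VAS WT. Nrl showed 10802 and 10419 against 3063, 3472 and 2958, with 4191 to 4727 in VAS WT. Crx showed 6420 and 6327 against 2367, 2120 and 1980. The VAS WT range lay between the 2 sets for Rorb, Nrl and Crx. Pax6 (chromosome 2, 105668900 to 105697364) was split the other way, at 4342 and 4446 in replicates 2 and 4 and 10320, 10555 and 9884 in the others, with 6065 to 6467 in VAS WT.

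The fold of replicates 2 and 4 over replicates 1, 3 and 5 was 6.61 for Rorb, 3.35 for Nrl, 2.96 for Crx, 2.70 for Mitf, 2.12 for Nr2e3, 1.90 for Thrb, 1.44 for Lhx2, 1.28 for Otx2 and 1.22 for Sox9, and Pax6 was 2.33-fold higher in the latter. These folds describe libraries of 1 labelled group and were given no test. Without replicates 2 and 4, 8 of the 10 genes were called lower than in VAS WT and 1 (Pax6) higher, against 20.3% and 17.6% of all genes. Lhx2 was the exception, with an adjusted p of 0.051 (limma). The log2 fold change was then -1.43 for Mitf, -1.29 for Rorb, -0.80 for Otx2, -0.75 for Sox9, -0.64 for Crx and 0.70 for Pax6. Nrl and Nr2e3 turned from 0.20 and 0.16 with all libraries to -0.50 and -0.27.

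The libraries labelled VAD Stra6-/- stood apart from the other groups in Otx2, Mitf, Lhx2, Pax6, Nrl and Nr2e3. Otx2 had values of 5321, 4900, 5062, 4897 and 4820 there, above each of the other 15 libraries. The log2 fold change was 1.58 against VAD WT (SE 0.078, adjusted p = 3.29e-13, limma) and 1.58 against VAS Stra6-/- (SE 0.078, adjusted p = 2.77e-13, limma). Mitf had values of 2049, 2181, 1996, 2162 and 2472, with log2 fold changes of 1.76 and 0.94 (SE 0.23 each, adjusted p = 9.76e-07 and 0.00135, limma). Lhx2, a LIM homeobox factor of the eye field (chromosome 2, 38339281 to 38369733), had values of 1463, 1502, 1538, 1496 and 1641, against 325 to 544 in VAD WT and 432 to 547 in VAS Stra6-/-. Its log2 fold changes were 1.84 and 1.68 (SE 0.13 each, adjusted p = 6.55e-11 and 2.58e-10, limma). Sox9 ranged from 969 to 1064, above VAD WT (log2 fold change 0.97, adjusted p = 2.05e-07, limma) but not separated from VAS Stra6-/-, where the 95% interval ran from -0.12 to 0.34.

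Pax6 moved in the opposite direction. It had values of 2397, 2168, 1969, 2186 and 2300 in the libraries labelled VAD Stra6-/- and 5493, 5782, 5742, 5436 and 5533 in VAS Stra6-/-. All 5 lay below each of the other 15 libraries, and the log2 fold change was -1.73 against VAD WT and -1.35 against VAS Stra6-/- (SE 0.19 each, adjusted p = 1.40e-07 and 4.72e-06, limma). The rod factors were lower as well: Nrl had values of 2341, 2703, 2611, 2679 and 2791, against 4498, 4344, 4177, 4632 and 4834 in VAS Stra6-/-. It was at -0.97 on the log2 scale against VAD WT and -0.78 against VAS Stra6-/- (SE 0.27 each, adjusted p = 0.00478 and 0.0211, limma); the second call was lost with DESeq2. Crx ranged from 1862 to 1995 and Nr2e3 from 808 to 1083, with log2 fold changes against VAD WT of -0.79 and -0.97 (adjusted p = 0.00976 and 0.000129, limma). Against VAS Stra6-/- they stood at -0.33 and -0.34 and were not called (adjusted p = 0.28 and 0.13, limma), although the ranges did not overlap and both were called with only the 2 groups in the fit or without VAD WT replicates 2 and 4. With only the 2 groups in the fit, the calls of Crx and Nrl against VAD WT were lost (adjusted p = 0.10 and 0.074, limma).

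Thrb, which encodes the thyroid hormone receptor of M cones (chromosome 14, 17660261 to 18038090), spanned 479 to 634 in these libraries, 324 to 371 in VAS Stra6-/- and 250 to 533 in VAD WT, so that it overlapped VAD WT alone. It was higher by 0.67 and 0.64 on the log2 scale (SE 0.17 each, adjusted p = 0.00192 and 0.0033, limma). Rorb ranged from 877 to 1042 and did not pass the test against either group, with adjusted p of 0.11 and 0.60 (limma), although it lay above all VAS Stra6-/- libraries. With only the 2 groups in the fit Rorb was called higher than VAS Stra6-/- (adjusted p = 0.00295, limma) but not than VAD WT (0.31). Without VAD WT replicates 2 and 4 Rorb was called higher than either group (adjusted p = 0.00183 and 2.13e-14, limma). Without VAD WT replicates 2 and 4 its log2 fold change against VAD WT was 1.90, that of Crx -0.16 and that of Nrl -0.27, while Otx2, Mitf, Lhx2 and Pax6 stood at 1.73, 2.34, 2.05 and -2.22.

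Against VAD WT, 5 of the 10 genes were called higher and 4 lower, beside 26.2% and 29.6% of all genes tested. Against VAS Stra6-/-, 4 were called higher and 2 lower, beside 24.4% and 28.8%. The median log2 fold change over the 10 genes was 0.75 and 0.20, and over all genes tested -0.05 and -0.07. In the same 2 comparisons 11 of 12 RPE list genes were called higher (list medians 3.42 and 2.36) and all 10 surface epithelium list genes lower (-4.82 and -5.09). The part of these shifts in the values of the 10 genes was not tested. The 2 comparisons share the libraries labelled VAD Stra6-/-, and the comparisons with VAS WT share that group.

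The diet effect differed between the genotypes, as labelled, for 7 of the 10 genes, beside 44.2% of all genes tested in either direction (limma). The difference, taken as the diet effect in Stra6-/- minus that in WT, was 2.24 for Otx2, 1.81 for Mitf, 1.75 for Lhx2, 0.80 for Thrb and 0.74 for Sox9 on the log2 scale. It was -1.56 for Pax6 and -0.97 for Nrl. The call of Nrl rested on an adjusted p of 0.0468 and was lost in 18 of 29 alternatives. Crx, Nr2e3 and Rorb were not called, and Crx changed sign without VAD WT replicates 2 and 4.

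To set the factors beside markers of the cells that express them, each was expressed relative to a marker list of its cell type. The ratio is its log2(value + 1) minus the mean over the list. RNA of the listed genes can also change per cell, so the ratio is not a level per cell. The RPE list holds visual cycle genes such as Rpe65 and Lrat. For these the paper proposes that severe deficiency raised transcription or selectively stabilized the transcripts. Groups were compared with a two-sided exact permutation test, whose smallest p for 5 against 5 is 0.00794, and 32 tests were adjusted together, of which 21 had an adjusted p under 0.05. Relative to the RPE list, Otx2 stood at -0.02 ± 0.14 in VAS WT, 0.59 ± 0.34 in VAD WT, -0.74 ± 0.12 in VAS Stra6-/- and -1.31 ± 0.068 in the libraries labelled VAD Stra6-/- (SD, n = 5 each). The knockout group on the VAS diet lay 0.72 below VAS WT (exact p = 0.00794, adjusted p = 0.0141), with no overlap between the libraries. The RPE list itself differed by 0.06 between these groups, with 3 of its 12 genes called lower and none higher. In VAD WT the ratio was higher than in VAS WT, by 0.61 (exact p = 0.00794, adjusted p = 0.0141); the RPE list fell by 1.27 and Otx2 by 0.66 on the log2 scale.

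In the libraries labelled VAD Stra6-/- all 3 RPE factors were lower relative to the RPE list, while Sox9 itself was not called against VAS Stra6-/-. Relative to the RPE list, the difference from VAS Stra6-/- was -0.57 for Otx2, -1.21 for Mitf and -2.04 for Sox9, and that from VAD WT -1.90, -1.72 and -2.52 (exact p = 0.00794 and adjusted p = 0.0141 for each). The list rose by 2.15 and 3.49 in these comparisons. Sox9 and Otx2 are also expressed outside the RPE, in Muller glia and photoreceptors. Mitf, as a factor of pigment cells, is not confined to the RPE either. The mean of the melanosome list was 11.4 in VAS Stra6-/- and 12.6 in the libraries labelled VAD Stra6-/-. Mitf relative to that list was not tested. In VAS Stra6-/- against VAS WT the ratio of Mitf differed by -0.10 (exact p = 0.16) and that of Sox9 by 0.17 (exact p = 0.17), and the sign for Sox9 turned when the list's median replaced its mean.

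**Figure D3:**
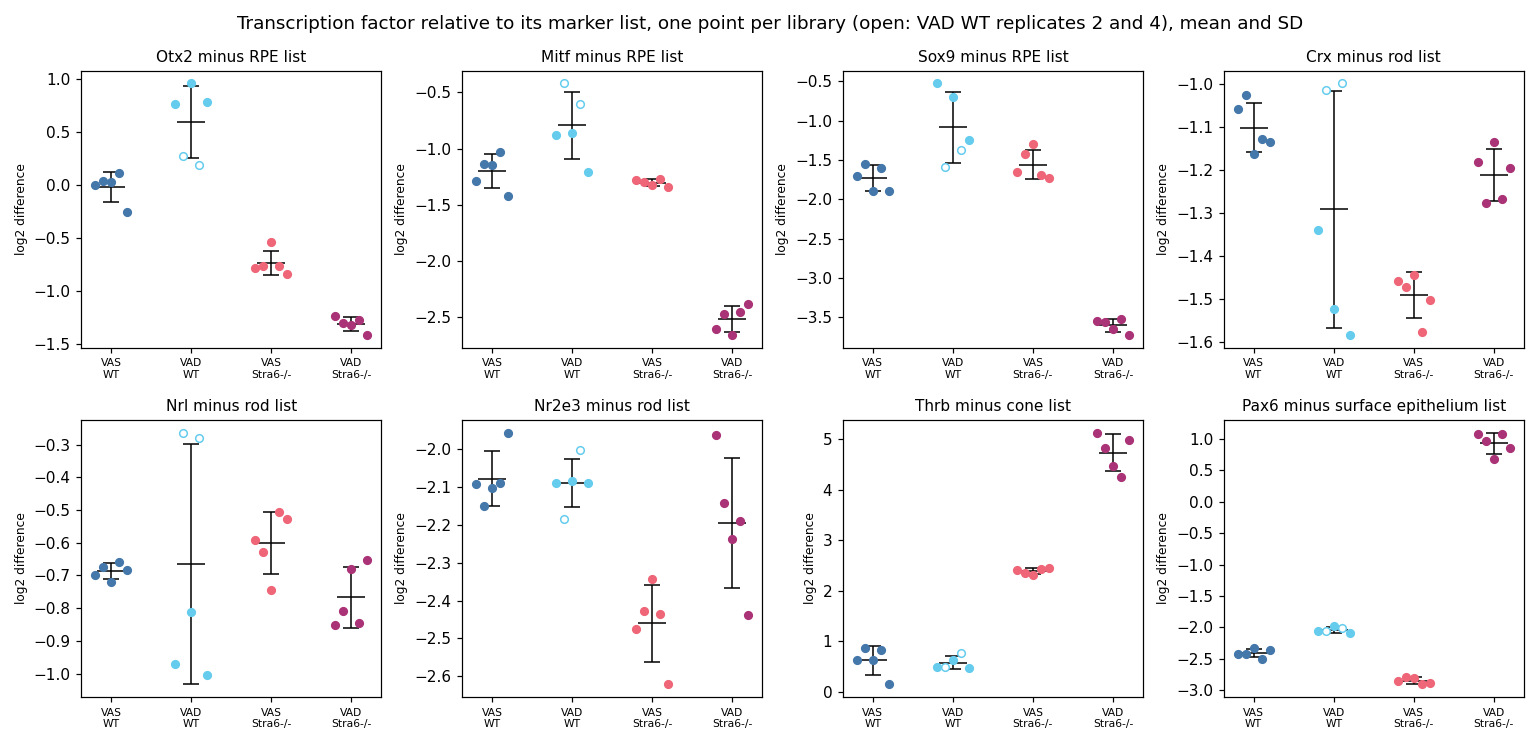
The log2(value + 1) of a transcription factor minus the mean of a marker list (vertical axis, log2 difference), with 1 point per library and the mean and SD of 5; open points are VAD WT replicates 2 and 4. The Otx2 ratio is at -0.02 in VAS WT and -0.74 in VAS Stra6-/-, and the Pax6 ratio is at 0.94 in the libraries labelled VAD Stra6-/- against -2.85 in VAS Stra6-/-.

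For the photoreceptor factors the rod list served as the reference. Relative to it, Crx lay 0.39 and Nr2e3 0.38 below VAS WT in the knockout group on the same diet (exact p = 0.00794 and adjusted p = 0.0141 for each), while Nrl differed by 0.09 (exact p = 0.0952). The rod list itself differed by -0.08 between these groups. In the libraries labelled VAD Stra6-/- the Crx ratio was higher than in VAS Stra6-/- by 0.28 (exact p = 0.00794, adjusted p = 0.0141). The Nr2e3 ratio was higher by 0.27 (exact p = 0.0318, adjusted p = 0.0484), and the Nrl ratio differed by -0.17 (exact p = 0.0397, adjusted p = 0.0577). The Nr2e3 call was lost in 8 of 13 alternatives, and the Nrl ratio was called in 2 of 13. Against VAD WT none of the 3 ratios passed the test, with differences of 0.08 for Crx, -0.10 for Nrl and -0.10 for Nr2e3 (exact p = 0.53, 0.52 and 0.24). Without VAD WT replicates 2 and 4 the Crx ratio differed by 0.27 (adjusted p = 0.026, exact permutation). The rod list itself differed by -0.87 from VAD WT.

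Thrb and the cone list parted. The cone list fell by 1.90 from VAS WT to VAS Stra6-/-, with all 9 of its genes called lower, while Thrb differed by -0.13. The Thrb ratio was 0.62 ± 0.29 in VAS WT, 2.40 ± 0.058 in VAS Stra6-/- and 4.74 ± 0.37 in the group labelled VAD Stra6-/- (SD, n = 5 each). Both steps had an exact p of 0.00794 and an adjusted p of 0.0141. Arr3, the cone arrestin, stood at 446 ± 49.7, 80.8 ± 9.30 and 4.39 ± 4.68 in the same order (SD, n = 5 each). The cone genes did not all follow Arr3 in the second step. Against VAS Stra6-/-, 5 of the 9 were called lower, 2 were not called and 2 were called higher. The higher ones were Gnat2 and Pde6c, with log2 fold changes of 0.63 and 0.95. Thrb is also transcribed in other cells than cones.

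Pax6 was set beside the surface epithelium list. Its ratio to that list was -2.41 ± 0.065 in VAS WT, -2.04 ± 0.046 in VAD WT and -2.85 ± 0.054 in VAS Stra6-/- (SD, n = 5 each), and replicates 2 and 4 of VAD WT did not stand apart, at -2.06 and -2.01 beside -2.05, -1.98 and -2.09. In the libraries labelled VAD Stra6-/-, where the list fell by 5.13 from VAS Stra6-/-, Pax6 fell by 1.35 and the ratio stood at 0.94 ± 0.17 (SD, n = 5; exact p = 0.00794, adjusted p = 0.0141). The inner retina list, some of whose cells also express Pax6, stood at a list median of -0.40 on the log2 scale, with 3 of 11 genes called lower and 1 higher. With the list's median in place of its mean, the Pax6 ratio of VAS Stra6-/- to VAS WT moved from -0.44 to -0.02 and was no longer called.

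**Figure D4:**
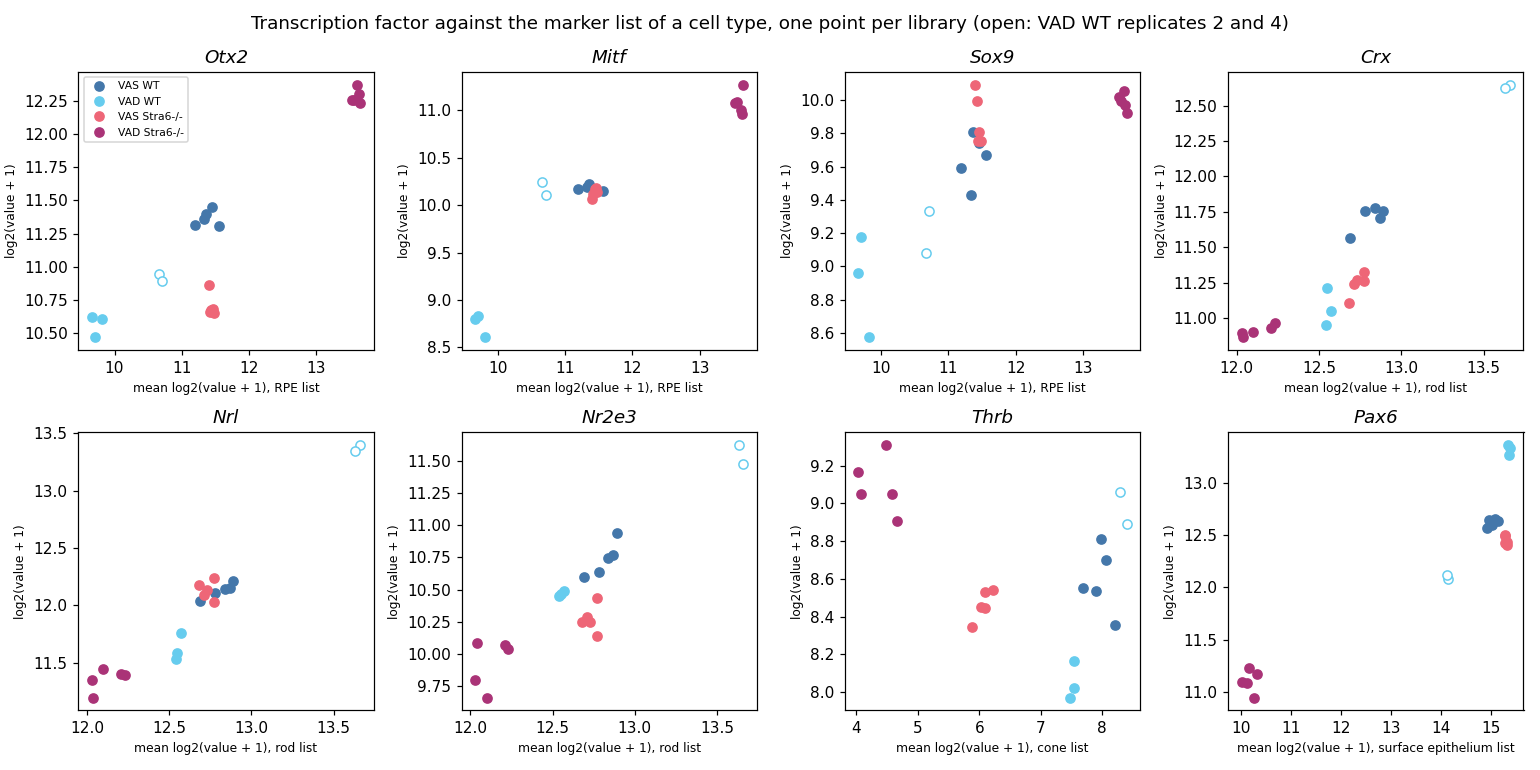
Each transcription factor (vertical axis, log2 of the normalized value plus 1) against the mean of a marker list on the same scale (horizontal axis), with 1 point per library coloured by group; open points are VAD WT replicates 2 and 4. Nrl, Crx and Nr2e3 rise with the rod list over all 20 libraries, with r of 0.97, 0.93 and 0.925, Otx2 leaves the order set by the RPE list in VAS Stra6-/-, and Thrb has its highest group mean where the cone list is lowest.

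Over the 20 libraries Pearson's r with the list mean was 0.97 for Nrl, 0.93 for Crx and 0.925 for Nr2e3 with the rod list, 0.93 for Mitf, 0.90 for Otx2 and 0.79 for Sox9 with the RPE list, 0.93 for Pax6 with the surface epithelium list and -0.49 for Thrb with the cone list. Among the factors themselves, r was 0.93 between Crx and Nrl and between Crx and Nr2e3, 0.89 between Otx2 and Lhx2, and -0.95 between Lhx2 and Pax6. These values are descriptive, since the libraries share 4 groups and the split of VAD WT.

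Of 13510 other genes with a mean normalized value of at least 50, those most like Pax6 over the 20 libraries were Tmsb4x, S100a10, S100a6, Foxp1 and Hebp2 (r from 0.99 to 0.996). Those most like Crx were the rod phosphodiesterase gene Pde6b (r = 0.98), Lbhd1, Mllt6, Syp and Eno2 (0.96 to 0.97). Mitf was most like Itm2c, Csrp1, Fbln1, Rab27a and Cck (0.98 to 0.99), of which Rab27a encodes a GTPase of melanosome transport. Otx2 was most like Rimklb, Nid2, Loxl4, Lcp1 and Cd81 (0.97 to 0.98), none of them in the marker lists. For Sox9 the likeness was weaker, with Parm1, Col4a3bp, Notch2, Got2 and Wfikkn2 at 0.92 to 0.94.

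A list of 33 other eye transcription factors, of which 31 passed the filter on low values, was read beside the 10. In VAS Stra6-/- against VAS WT 3 were called higher and 6 lower, among them the eye field factor Rax (log2 fold change -0.60) and the inner retina factor Isl1 (-0.93). In VAD WT against VAS WT only Prdm1, a repressor of bipolar fate that is also expressed in epithelia, was called, at -0.79 (adjusted p = 0.000426, limma). In the libraries labelled VAD Stra6-/-, 2 were called higher and 13 lower than in VAD WT. The higher ones were Tfec, a relative of Mitf (2.66), and Six3 (0.88), and the lower ones included Tfap2b (-1.66), Prdm1 (-1.48), Isl1 (-1.43) and Otx1 (-1.36). Tfec had low values, at 31.2 ± 19.6 against 6.08 ± 7.65 in VAD WT (SD, n = 5 each). It was not called against VAS Stra6-/- (log2 fold change 1.18, adjusted p = 0.14, limma). Against VAS Stra6-/- 2 were called higher and 10 lower, with Prdm1 at -2.75 and Otx1, the paralog of Otx2, at -2.11, where Otx2 itself was at 1.58. The median log2 fold change of the list was -0.13, -0.03, -0.53 and -0.20 in these 4 comparisons. Of all genes tested, 15.9%, 3.29%, 26.2% and 24.4% were called higher in the same order, and 10.8%, 5.5%, 29.6% and 28.8% lower.

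The other marker lists were read in the same way, beside the same shares of all genes. In VAS Stra6-/- against VAS WT 3 of 12 melanosome genes were called higher and none lower, 2 of 7 Muller glia genes higher and 4 lower, and 4 of 6 lens genes lower. In VAD WT against VAS WT 6 melanosome, 2 Muller glia and 3 lens genes were called lower and none higher. In the libraries labelled VAD Stra6-/- all 12 melanosome genes were called higher than in VAD WT and 11 higher than in VAS Stra6-/-. The melanocyte list (3 genes) had 1 gene called higher and 1 lower in each of these comparisons, and the sclera and cartilage list (5 genes tested) had 3 and 2 called higher and 1 lower in each.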

How the data were processed

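Bulk RNA-seq of 20 RPE-choroid samples was used, 5 in each of 4 groups taken from the labels. Reads were aligned by the authors with STAR 2.5.3a to GRCm38/mm10 and counted per gene with RSEM 1.2.30 (submitters' processing notes). The deposited table holds a signal: each library's counts, scaled by the authors with a single DESeq2 1.32.0 size factor and neither log-transformed nor corrected for gene length. In 19 libraries 100% of values were whole multiples of 1 read within 0.02; replicate 1 labelled VAD Stra6-/- has a step so near 1 that its reads were used only for depth, the filter and the TMM rescaling, and it was left out of the tests on counts. No 2 libraries of a group agreed within sampling noise (chi-square per gene 3.39 to 202), so none were merged. Intervals cover the spread between libraries.

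limma 3.58.1 (R 4.3.3) was run on log2(value + 1) with a mean per group, an intensity trend and Benjamini-Hochberg adjustment over 18807 genes with at least 5 reads in total; calls were made at an adjusted p under 0.05. The added 1 understates fold changes of low genes. The limma, edgeR and DESeq2 fits were checked on simulated counts with known changes. As alternatives edgeR 4.0.16 and DESeq2 1.42.0 were run on the recovered reads, beside other pseudocounts, filters, scaling, libraries in the fit, a replicate block and fold thresholds. Ratios to marker lists were compared by exact permutation. All 10 genes, Stra6, Xist, Ddx3y and the genes of 11 marker lists (123 genes, 122 in the table) could be named, and for 5 of the factors the 5 most similar genes. Members, lists and tests were chosen with earlier results of these data known. Positions are from GENCODE vM21, promoter sequences from RefSeq.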

Additional observations from a re-analysis of the deposited data

Results flagged for a closer look

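In 1 of the 40 sets of 5 libraries examined (10 genes in 4 groups), the extreme library lay far from the rest: Otx2 in VAS Stra6-/- replicate 3, at a normalized value of 1858 beside 1605 to 1640.4 in the other 4 libraries of that group. Chance alone would mark about 1 set in 20.

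The diet effect differed between the genotypes, as labelled, for 7 genes by the interaction term (limma). The difference on the log2 scale, Stra6-/- minus WT, was 2.24 for Otx2, 1.81 for Mitf, 0.74 for Sox9, 1.75 for Lhx2, -1.56 for Pax6, -0.97 for Nrl and 0.80 for Thrb. Each of these values rests on the libraries labelled VAD Stra6-/-, in which Stra6 is not low while the RPE list is higher too. Each also rests on the split VAD WT group, in which Stra6 and the RPE list are low in replicates 1, 3 and 5. The part of either group was not tested.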

How the results depend on the processing

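Same-numbered libraries did not deviate together (correlations from -0.07 to 0.07), so the numbers do not pair them; with a replicate block the members called were 1, 3, 9, 6 and 7 in the 4 comparisons and the interaction, as without it. With the block 15.4%, 2.73%, 26%, 24.2% and 19.2% of all genes were called higher in the same order. Lower calls were made for 10.3%, 4.96%, 29.4%, 28.6% and 24.4%. Leaving out each library gave 1 to 1, 2 to 3, 9 to 10, 6 to 6 and 6 to 7 members. Shares of all genes were not taken for those fits. In VAS Stra6-/- against VAS WT 5 members were called with only the 2 groups in the fit or without VAD WT replicates 2 and 4, and in VAD WT against VAS WT 2 and 9. In VAD Stra6-/- against VAD WT the same settings gave 7 and 10, in VAD Stra6-/- against VAS Stra6-/- 9 and 9, and without those replicates the interaction gave 9. Of all genes, VAD Stra6-/- against VAD WT had 22.3% higher and 25% lower with only the 2 groups. It had 30.7% and 32.5% without those replicates. For VAD Stra6-/- against VAS Stra6-/- the shares were 29.4% and 32.8%, then 28.3% and 32.4%. The interaction had 25.7% higher and 29% lower without those replicates. With a log2 fold change beyond 1 as well, 0, 0, 4, 3 and 4 members were called, and beyond 2, 0, 0, 0, 0 and 1. The shares of all genes beyond these fold thresholds were not taken, so these counts cannot be set against them. Over all genes, VAD WT against VAS WT had 618 higher and 1034 lower calls, 686 and 844 with edgeR, 1059 and 1081 with DESeq2, 201 and 438 with only the 2 groups and 3306 and 3818 without replicates 2 and 4; VAS Stra6-/- against VAS WT had 2984 and 2026, 4537 and 3671 with only the 2 groups and 4225 and 3299 without those replicates.

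Directions that turned belonged to members not called with all libraries in the fit. In VAS Stra6-/- against VAS WT Nrl was at -0.019 with TMM factors, -0.018 with edgeR and -0.021 to 0.032 without single libraries. In VAD WT against VAS WT Crx was at 0.20 with edgeR and 0.20 with DESeq2, Rorb at 0.41 and 0.40, and without replicates 2 and 4 Nrl was at -0.50 and Nr2e3 at -0.27. Without single libraries the same comparison ran from -0.16 to 0.029 for Lhx2, -0.25 to 0.17 for Crx, -0.0722 to 0.39 for Nrl, -0.017 to 0.28 for Nr2e3 and -0.63 to 0.078 for Rorb. The interaction of Crx was 0.31 without replicates 2 and 4, and that of Rorb -0.15 with edgeR and -0.14 with DESeq2.

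Of the ratios to marker lists, those with the list's median changed for VAS Stra6-/- against VAS WT (Mitf -0.41, Sox9 -0.14, Nrl -0.019, Pax6 -0.0201), VAD WT against VAS WT (Crx -0.43, Nrl -0.22, Nr2e3 -0.25, Thrb 0.13) and VAD Stra6-/- against VAD WT (Nrl 0.029, Nr2e3 0.025). Without VAD WT replicates 2 and 4, VAD WT against VAS WT gave 0.22 for Mitf, -0.38 for Crx and -0.24 for Nrl, and VAD Stra6-/- against VAD WT 0.27 for Crx and 0.16 for Nrl. Without single libraries the VAD WT against VAS WT ratio ran from 0.52 to 0.71 for Otx2, 0.31 to 0.51 for Mitf, 0.50 to 0.77 for Sox9, -0.079 to 0.11 for Nrl, -0.033 to 0.019 for Nr2e3 and -0.17 to 0.0097 for Thrb. That of VAS Stra6-/- against VAS WT ran from -0.16 to -0.058 for Mitf and 0.064 to 0.12 for Nrl, that of VAD Stra6-/- against VAS Stra6-/- from -0.20 to -0.14 for Nrl and 0.21 to 0.33 for Nr2e3, and that of VAD Stra6-/- against VAD WT from -0.16 to -0.044 for Nr2e3. In each of these the side of the threshold or the sign changed for at least 1 alternative; the cause was not tested. With 5 libraries a group, exact tests allow no p under 0.00794.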
